A study of Mus musculus with 17 samples.

Results

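The 60 genes described here encode RNA-binding splicing factors and the kinases that phosphorylate them. They were chosen by name alone, as the protein-coding mouse genes whose symbol starts with Srsf (11 genes), Hnrnp (20), Celf (6), Elavl (4), Rbfox (3), Ptbp (3), Mbnl (3) or Nova (2), together with the CLK kinases (4), the SRPK kinases Srpk1 and Srpk2 (2) and the SR-like factors Tra2a and Tra2b (2). All 60 were found among the 38355 gene identifiers of the count files, and 59 passed the filter on low counts in both comparisons. The filtered gene was Mbnl3, which lay at or below 0.508 CPM (the gene's count scaled to a common library total, by edgeR's TMM method) in every sample of the aged groups and at or below 0.509 CPM in every 3M sample. 2 processed pseudogenes with such symbols were not counted as members.

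Polyadenylated RNA came from the hippocampus, dissected by hand from untreated wild-type C57BL/6J mice of 3, 24 and 29 months. The study held 2 separate experiments, which are called 3M against 24M (5 and 6 libraries, single-end reads of 50 bases) and 3M against 29M (3 and 3 libraries, paired-end reads of 100 bases). Mice of the oldest group were bought at 24 months and then kept in the holding rooms of the study, and the labels give neither the sex of the mice nor whether each library came from a separate mouse. The p-values therefore measure the spread between these samples, part of which may be technical, and the age of the oldest group and the library type cannot be told apart.

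Counts on genes ranged from 19144461 to 28438296 per library in the 3M single-end group, from 9213474 to 19756411 at 24M, from 10977976 to 15054972 in the paired-end libraries at 3M and from 10991389 to 13563541 at 29M. 24M replicates 1 and 4 differed by less than the sampling noise (mean ratio of squared difference to counting variance 0.406, against at least 1.23 in the other 135 pairs of libraries). Their rounded mean was counted as 1 sample, so that 24M has n = 5 samples. 24M replicate 3 stood apart in nuclear RNA, as given with the kinases. Markers of hippocampus (12 genes), neurons (14) and microglia (12) were detected, and none of them was at 0 in all libraries. In whole tissue, fewer cells of a type and less RNA per cell cannot be told apart.

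Splicing factors decide which exons of a pre-mRNA are joined. SR proteins (Srsf genes) carry an arginine-serine-rich domain and mostly promote the use of exons whose enhancer sequences they bind, whereas hnRNP proteins and the PTB proteins often silence exons. SRPK kinases phosphorylate the arginine-serine domain in the cytoplasm, which brings SR proteins into the nucleus, and CLK kinases phosphorylate it further in the nucleus. RBFOX, NOVA, ELAVL, CELF and MBNL proteins set the exon choices of neurons and of developing tissue, and many members control their own transcripts through exons or introns that lead to decay or nuclear retention.

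Levels of different genes were compared only per length, as CPM per kilobase (kb) of exon in the 3M groups. Rbfox1, a regulator of neuronal exons, was the highest of the RBFOX genes with 86.6 CPM per kb in the paired-end and 93.0 CPM per kb in the single-end libraries. Hnrnpa2b1, an abundant RNA-binding hnRNP, led its family in the paired-end libraries at 64.6 CPM per kb, and Celf4, a neuronal CELF protein, led the CELF genes at 55.1 CPM per kb. Hnrnpa0 (62.4 CPM per kb) lay above Hnrnpa2b1 (59.2 CPM per kb) in the single-end libraries.

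The SR gene with the highest level was Srsf5 at 44.8 CPM per kb in the paired-end libraries, and Elavl3, a neuronal ELAVL gene, was at 40.0 CPM per kb. Mbnl2 led its group at 22.04 CPM per kb, and the SR protein kinase Srpk2 had 14.8 CPM per kb. Nova2 had 10.7 CPM per kb, Ptbp2, the PTB protein of neurons, had 10.2 CPM per kb, Clk1 had 7.95 CPM per kb and Tra2a had 6.32 CPM per kb. Clk1 and Tra2a had the lowest of these leading levels.

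Some members had far fewer reads in the single-end than in the paired-end libraries of mice of the same age. Hnrnpa1, an hnRNP that often acts against SR proteins, had 8.13, 7.89, 5.58, 7.33 and 8.34 CPM in the 5 single-end 3M libraries. In the 3 paired-end 3M libraries it had 192, 202 and 202 CPM. The ratio of the mean levels was 26.7, although the 2 tables were normalized separately. The same ratio was 6.98 for Hnrnpa3, 3.88 for Hnrnpf, 3.16 for Tra2b, 2.37 for Hnrnpk and 2.35 for Srsf10.

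These members share sequence with other genes, mostly processed pseudogenes, which are intron-less copies of the mRNA. For each member, windows of 50 bases, the length of a single-end read, were taken along the longest coding transcript and looked up in the annotated transcripts of genes elsewhere in the genome (GENCODE M21). In 10 of the 59 tested members more than 10% of the windows were also found in another gene, and the paired-end to single-end ratio of these 10 ranged from 1.42 to 26.7 with a median of 2.36. In the other 49 members it ranged from 0.783 to 1.53 with a median of 1.0, and only Hnrnpr exceeded 1.5. Reads that did not align uniquely made up 22.9% to 26.6% in the single-end and 10.8% to 12.7% in the paired-end libraries. The part of multiply aligned reads in these ratios was not tested.

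**Figure D1:**
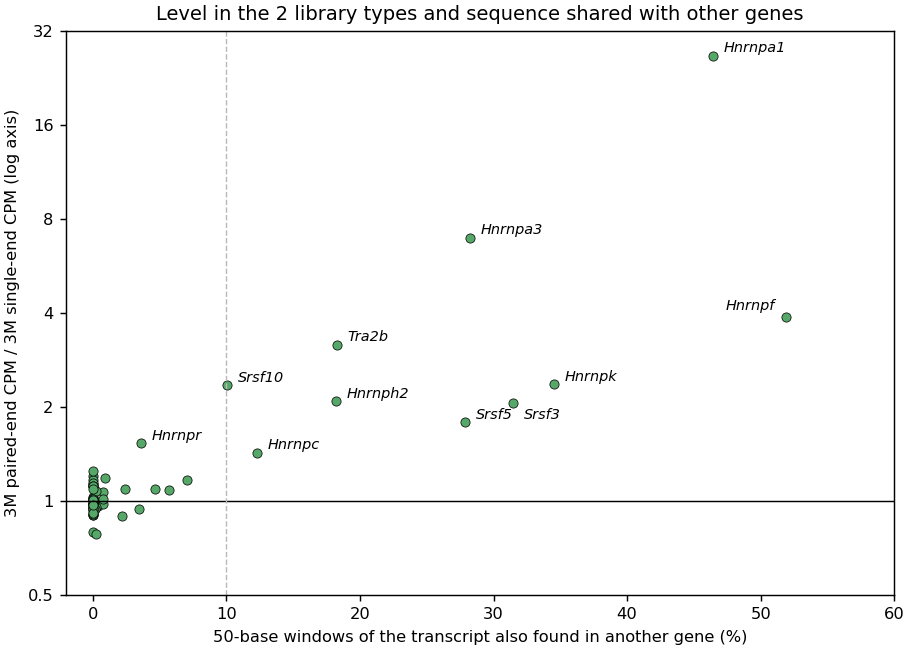
Ratio of the mean CPM in paired-end to single-end 3M libraries (log axis) against the percentage of 50-base windows of the longest coding transcript that also occur in another gene, for 59 members. The 10 members right of the dashed line at 10% all lie above 1, from 1.42 (Hnrnpc) to 26.7 (Hnrnpa1).

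Stretches of Tra2b and Srsf3, genes whose levels differed between library types, show this copying, with the differing base in capitals. The first lies in exon 4 of Tra2b on GRCm38, chr16:22252619-22252718 on the minus strand, and its copy is in the processed pseudogene Gm10254 at chr3:54810384-54811250. The second lies in exon 3 of Srsf3, chr17:29038490-29038589 on the plus strand, and its copy is in Gm12355, annotated as protein-coding, at chr11:98624351-98625661. Counted from 1 at the 5′ end of the window, with the base of the member first, the differences are C100T for Tra2b and C69T for Srsf3, so a 50-base read can match both genes exactly where a 100-base read does not.
Tra2b: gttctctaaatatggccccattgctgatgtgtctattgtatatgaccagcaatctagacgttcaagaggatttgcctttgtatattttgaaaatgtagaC
Gm10254: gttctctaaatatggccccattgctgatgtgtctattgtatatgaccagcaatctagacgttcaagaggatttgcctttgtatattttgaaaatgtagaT
Srsf3: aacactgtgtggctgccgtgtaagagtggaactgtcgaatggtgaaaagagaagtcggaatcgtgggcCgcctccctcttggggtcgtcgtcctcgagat
Gm12355: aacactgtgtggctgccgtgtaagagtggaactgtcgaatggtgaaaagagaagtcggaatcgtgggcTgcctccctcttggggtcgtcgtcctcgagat

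The first comparison asks which members differed between the 24M and the 3M hippocampus. At 24M, 11 of the 59 tested members were higher at an adjusted p of at most 0.05 (18.6%, against 3.21% of all 15683 genes tested), and Nova2 alone was lower (against 2.37% of all genes). The higher genes were 5 of 11 SR genes (Srsf1, Srsf2, Srsf3, Srsf6 and Srsf10), 2 of 4 CLK kinases (Clk1 and Clk4), both tested MBNL genes, Elavl2 and Hnrnpk. When the log2 fold change also had to reach 0.5 in size, the threshold in the methods of the study, 2 members were higher, Srsf10 and Clk1 (against 1.34% of all genes). Under that rule 0 members were lower (against 0.638% of all genes) with edgeR's quasi-likelihood test and 0 with DESeq2, and 2 were lower at an unadjusted p under 0.05 (against 12.1%). At that unadjusted p 27 were higher (against 14.0%). Of the 59, 45 had a log2 fold change above 0 (76.3%, against 49.2% of all genes). The median log2 fold change of the members was 0.11, and that of all genes was -0.0032.

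**Figure D2:**
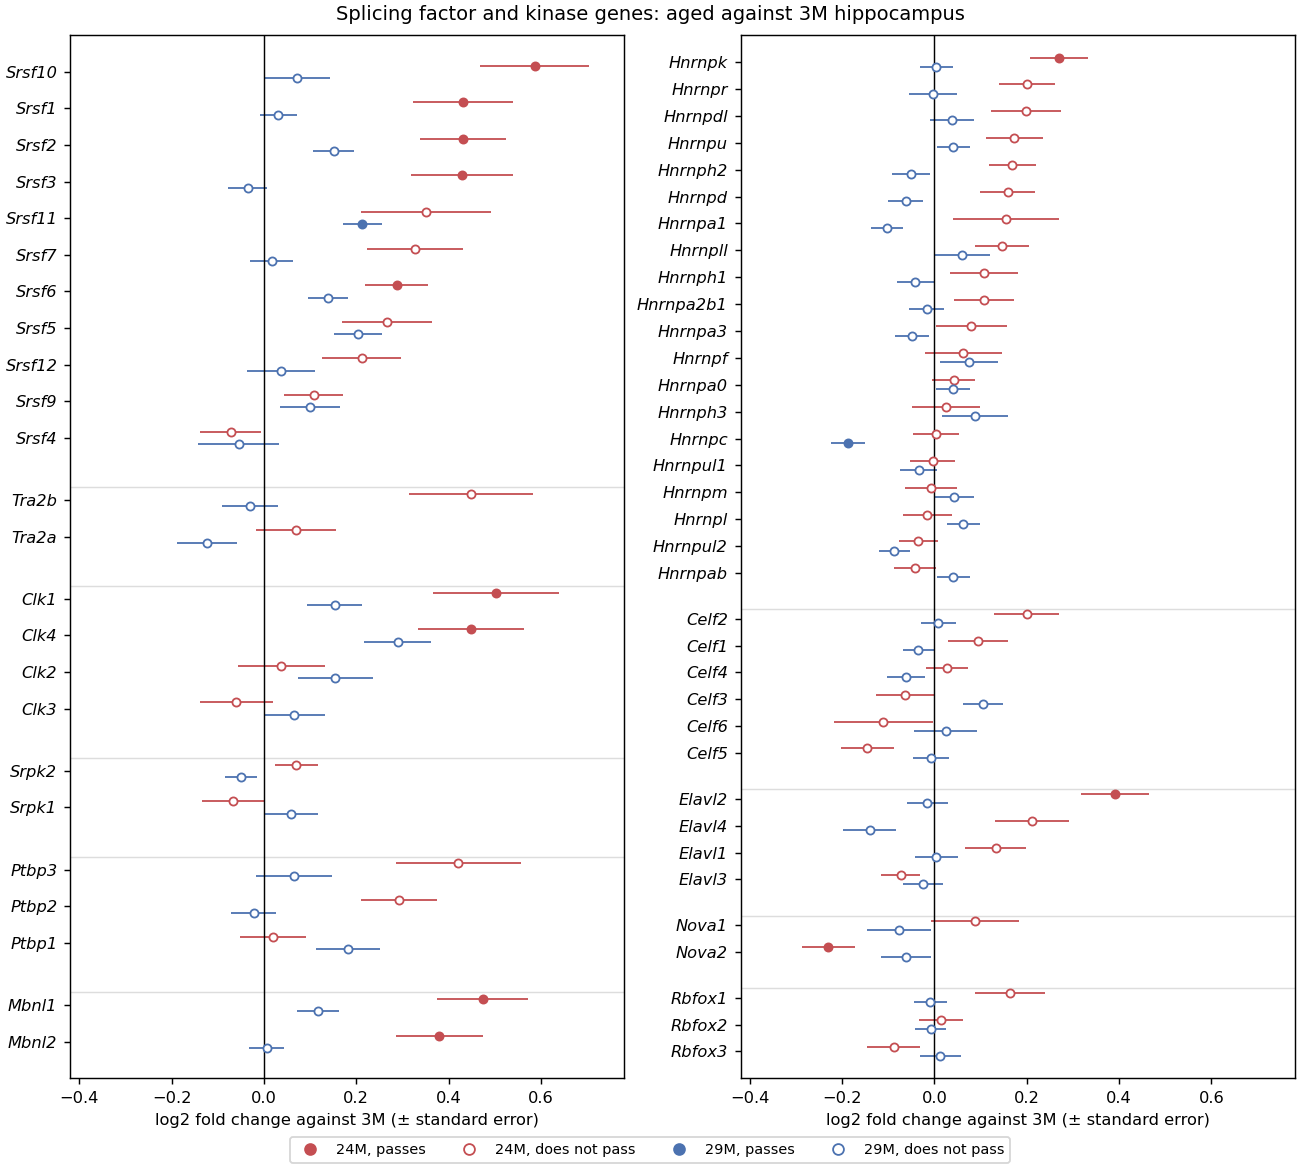
Log2 fold change with its standard error (bars) of the 59 tested members at 24M (red, single-end) and 29M (blue, paired-end) against the 3M group of the same library type, by family. Filled points pass an adjusted p of 0.05 (edgeR, over all genes): 12 at 24M, most of them SR, CLK and MBNL genes, and 2 at 29M.

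Among the SR proteins, Srsf10, a factor whose activity in splicing depends on its phosphorylation, had 18.7, 25.4, 19.4, 24.4 and 27.7 CPM in 3M replicates 1 to 5. It had 32.8 CPM in the merged 24M sample and 37.7, 40.6, 29.0 and 32.97 CPM in 24M replicates 2, 3, 5 and 6. All 24M samples lay above all 3M samples. Srsf10 rose by 0.59 on the log2 scale (SE 0.118). The adjusted p was 0.0175 in edgeR's quasi-likelihood test after Benjamini-Hochberg adjustment over all genes.

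Srsf2, an SR protein of exonic enhancers and of transcriptional pausing, had 65.3, 64.6, 56.7, 59.4 and 72.3 CPM at 3M. It had 85.7 CPM in the merged 24M sample and 85.7, 106, 74.4 and 76.7 CPM in replicates 2, 3, 5 and 6. The groups did not overlap, and the highest 3M sample was replicate 5. Srsf2 rose by 0.43 on the log2 scale (SE 0.0925, adjusted p 0.0220, edgeR), although 25.3% of its exon length overlaps Mettl23 and Mfsd11, whose reads the library kit cannot separate by strand.

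Srsf6, an SR protein that binds exonic enhancers, had 87.4, 89.7, 74.0, 81.9 and 92.9 CPM at 3M. The merged 24M sample had 98.9 CPM, and 24M replicates 2, 3, 5 and 6 had 105, 116, 97.1 and 103 CPM. Every 24M sample was again above every 3M sample, by a narrow margin for 24M replicate 5. Srsf6 rose by 0.29 (SE 0.0674, adjusted p 0.0309, edgeR).

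Srsf1, the founding SR protein, had 105, 123, 95.8, 116 and 146 CPM at 3M. At 24M it had 145 CPM in the merged sample and 160, 192, 141 and 150 CPM in replicates 2, 3, 5 and 6. 3M replicate 5 lay within the range of the 24M samples, so the groups overlapped. Srsf1 rose by 0.43 (SE 0.108, adjusted p 0.0368, edgeR). Srsf3, the smallest SR protein, had a mean of 53.0 ± 9.5 CPM at 3M and 71.2 ± 7.0 CPM at 24M (SD, n = 5 and 5), and rose by 0.43 (SE 0.110, adjusted p 0.0406, edgeR).

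The other 6 SR genes did not pass. Their log2 fold changes at 24M ran from -0.07 (Srsf4) to 0.35 (Srsf11), and 4 of the 6 had an unadjusted p under 0.05. The TRA2 proteins, which bind exonic enhancers together with SR proteins, did not pass either. Tra2b ranged from 13.8 to 22.3 CPM at 3M and from 20.2 to 27.6 CPM at 24M (log2 fold change 0.45, SE 0.134, adjusted p 0.0629, edgeR). Tra2a ranged from 38.6 to 45.1 CPM at 3M and from 37.4 to 49.95 CPM at 24M (log2 fold change 0.07, adjusted p 0.648, edgeR).

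**Figure D3:**
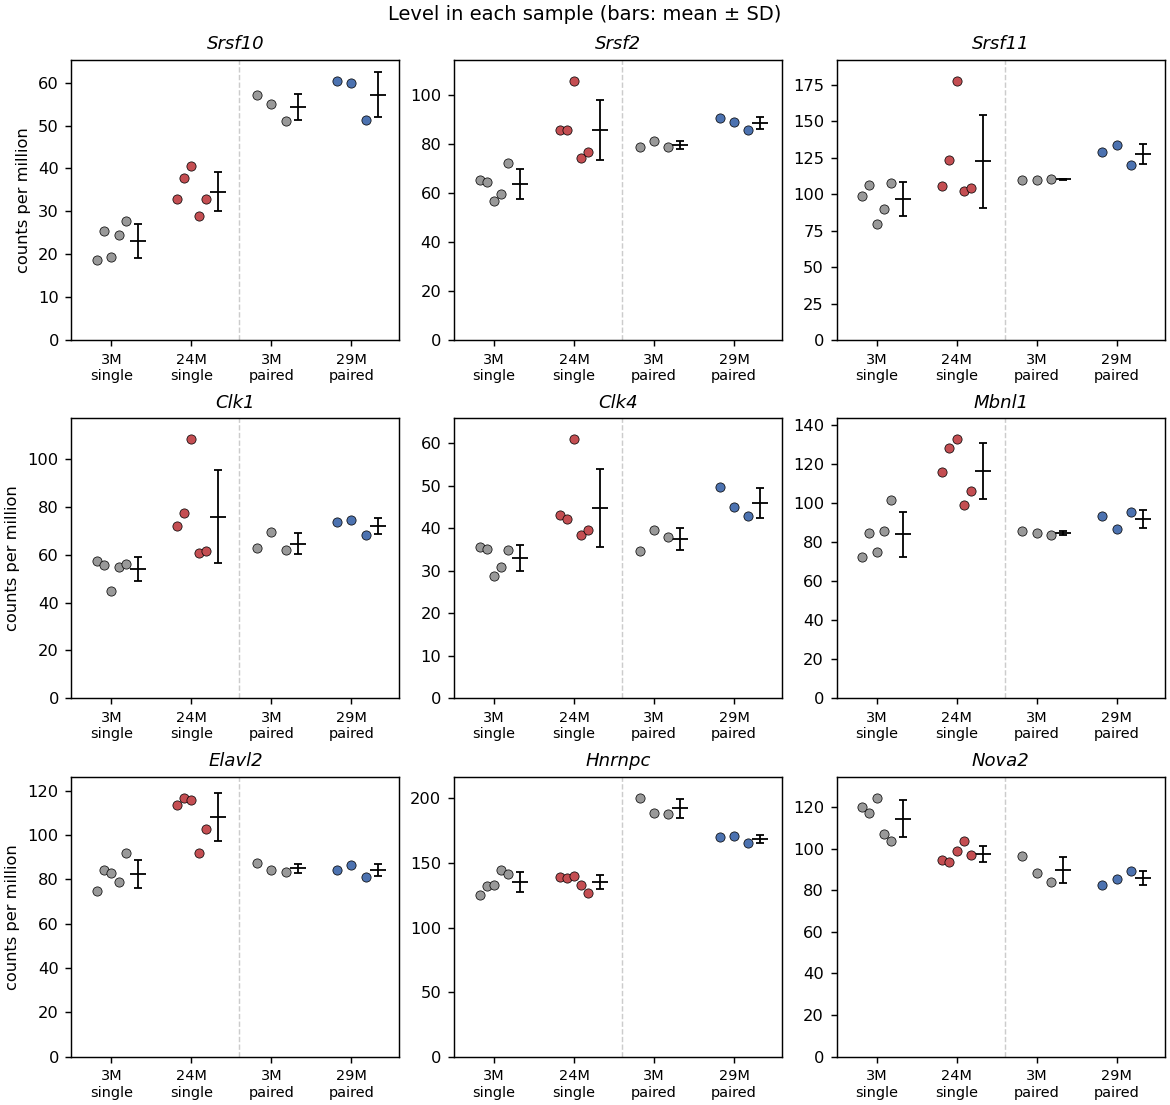
CPM of 9 members in each sample of the 4 groups (points; 24M replicates 1 and 4 as 1 sample), with the mean and SD beside them; the dashed line separates the single-end from the paired-end experiment. Srsf10, Srsf2, Clk1, Clk4 and the lower Nova2 do not overlap between 3M and 24M. Between 3M and 29M, Clk4, Srsf2, Srsf11, Mbnl1 and the lower Hnrnpc do not overlap.

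Of the kinases, Clk1, which phosphorylates SR proteins in nuclear speckles, had 57.3, 55.8, 45.0, 54.97 and 56.1 CPM at 3M. It had 72.01 CPM in the merged 24M sample and 77.3, 108, 60.6 and 61.3 CPM in replicates 2, 3, 5 and 6. All 24M samples lay above all 3M samples, and replicate 3 was far above the others. Clk1 rose by 0.50 (SE 0.136, 1.42-fold, adjusted p 0.0481, edgeR).

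Clk4, the nearest relative of Clk1, had 35.5, 35.1, 28.8, 31.0 and 35.0 CPM at 3M. The merged 24M sample had 43.1 CPM, and replicates 2, 3, 5 and 6 had 42.3, 61.0, 38.5 and 39.6 CPM. The pattern was that of Clk1, without overlap and with the highest value in replicate 3. Clk4 rose by 0.45 (SE 0.115, adjusted p 0.0406, edgeR).

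Clk2 and Clk3, the other CLK kinases, did not pass. Clk2 ranged from 17.8 to 23.2 CPM at 3M and from 18.8 to 25.9 CPM at 24M (log2 fold change 0.04, adjusted p 0.836, edgeR), and Clk3 from 23.1 to 31.8 CPM and from 24.6 to 28.1 CPM (log2 fold change -0.06, adjusted p 0.669, edgeR). The SRPK kinases did not pass. Srpk1 ranged from 52.5 to 60.2 CPM at 3M and from 49.0 to 60.8 CPM at 24M (log2 fold change -0.07, SE 0.0688), and Srpk2 from 216 to 234 CPM and from 216 to 248 CPM (log2 fold change 0.07, SE 0.0469).

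24M replicate 3 held the highest value among the 6 libraries of its group in 37 of the 59 tested members and in 8 of the 11 higher ones. The share over all genes was not counted, and the 11 were chosen for their 24M values. It had 1014 CPM of the nuclear RNA Malat1 and 1908 CPM of the nuclear RNA Meg3, where the other 24M libraries had 356 to 523 CPM and 632 to 980 CPM. Reads outside any gene feature were 12.7% there and 9.79% to 10.4% in the other 24M libraries. The part of this library's nuclear RNA in the levels of Clk1 and Clk4 was not tested. Without 24M replicate 3, the log2 fold change was 0.33 for Clk1 (adjusted p 0.0672, edgeR) and 0.30 for Clk4 (adjusted p 0.0529, edgeR), and neither passed.

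**Figure D4:**
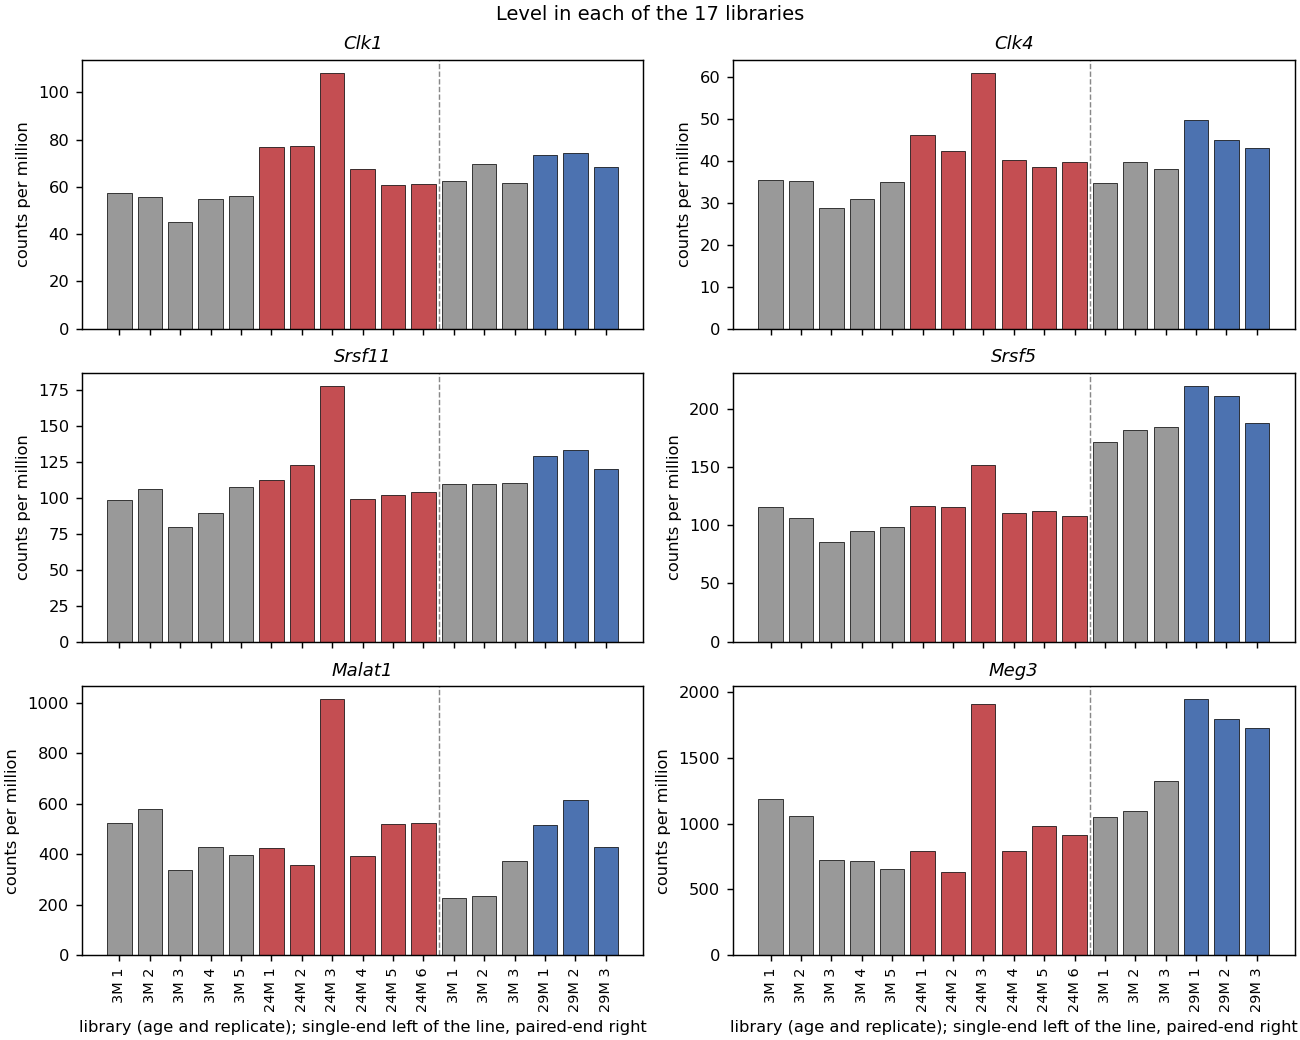
CPM of Clk1, Clk4, Srsf11 and Srsf5 and of the nuclear RNAs Malat1 and Meg3 in each of the 17 libraries (bars start at 0; grey 3M, red 24M, blue 29M). 24M replicate 3 is the highest single-end library in all 6 panels, and Meg3 is also high in the 29M libraries.

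Among the hnRNP genes, Hnrnpk, which binds cytosine-rich RNA and DNA, had 134, 156, 148, 154 and 170 CPM at 3M. It had 188 CPM in the merged 24M sample and 198, 186, 173 and 173 CPM in replicates 2, 3, 5 and 6. The groups did not overlap. Hnrnpk rose by 0.27 (SE 0.0623, adjusted p 0.0293, edgeR), and 34.5% of its 50-base windows occur in other genes.

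The other 19 hnRNP genes did not pass at 24M and had log2 fold changes from -0.04 (Hnrnpab) to 0.20 (Hnrnpr). Hnrnpa2b1 had 368 to 417 CPM at 3M and 373 to 486 CPM at 24M (log2 fold change 0.11, SE 0.0658). Hnrnph2, which binds runs of guanine, had 57.6 to 60.7 CPM at 3M and 62.2 to 71.5 CPM at 24M without overlap (log2 fold change 0.17, adjusted p 0.0637, edgeR). None of the 3 PTB genes passed. Ptbp2 had a mean of 93.6 ± 11.2 CPM at 3M and 114.5 ± 9.13 CPM at 24M (SD, n = 5 and 5; log2 fold change 0.29, adjusted p 0.0528, edgeR), and its log2 fold change turned to -0.07 with offsets for GC content and gene length.

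Of the tissue regulators, Mbnl1, which drives adult exon choices and is sequestered in myotonic dystrophy, had 72.2, 84.5, 75.0, 85.6 and 102 CPM at 3M. It had 116 CPM in the merged 24M sample and 128, 133, 98.9 and 106 CPM in replicates 2, 3, 5 and 6. Only 3M replicate 5 reached into the 24M range. Mbnl1 rose by 0.47 (SE 0.0983, adjusted p 0.0192, edgeR).

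Mbnl2, the MBNL protein most active in brain, had 212, 236, 230, 223 and 287 CPM at 3M. At 24M it had 331 CPM in the merged sample and 337, 343, 255 and 279 CPM in replicates 2, 3, 5 and 6. 3M replicate 5 exceeded 24M replicates 5 and 6. Mbnl2 rose by 0.38 (SE 0.0937, adjusted p 0.0352, edgeR).

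Elavl2, a neuronal protein that binds AU-rich RNA, had 74.6, 84.1, 82.7, 78.9 and 92.0 CPM at 3M. It had 114 CPM in the merged 24M sample and 117, 116, 91.8 and 103 CPM in replicates 2, 3, 5 and 6. The overlap was confined to 3M replicate 5 and 24M replicate 5. Elavl2 rose by 0.39 (SE 0.0738, adjusted p 0.0136, edgeR), the smallest adjusted p of the members at 24M. With offsets for GC content and gene length the log2 fold change of Elavl2 was 0.15 (adjusted p 0.0858, edgeR), and it no longer passed.

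Nova2, a neuronal factor that binds YCAY clusters, was the only member that passed as lower at 24M. It had 120, 117, 124.5, 107 and 103.5 CPM at 3M. It had 94.7 CPM in the merged 24M sample and 93.6, 98.9, 103.5 and 96.9 CPM in replicates 2, 3, 5 and 6. All 24M samples lay below all 3M samples, though replicate 5 of either group stood at 103.5 CPM after rounding. Nova2 fell by 0.23 (SE 0.0571, adjusted p 0.0358, edgeR), and 31.7% of its exon length overlaps Gm26821, a gene on the opposite strand whose reads the kit cannot separate.

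None of the 3 RBFOX and 6 CELF genes passed at 24M. Rbfox1 had 378 to 456 CPM at 3M and 405 to 543 CPM at 24M (log2 fold change 0.16, adjusted p 0.188, edgeR). Celf4 had 482 to 527 CPM and 489 to 545 CPM (log2 fold change 0.03, SE 0.0459), and Elavl3 had 280 to 296 CPM and 261 to 292 CPM (log2 fold change -0.07, SE 0.0421). These abundant neuronal regulators overlapped between the groups.

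Single libraries moved these counts, for the members and for all genes together. Elavl2 passed in all 11 fits that left out a library, and Srsf10, Srsf2 and Mbnl1 passed in 10, all but the fit without 24M replicate 2 (adjusted p 0.0570, 0.0599 and 0.0617, edgeR). Srsf6 and Hnrnpk passed in 6, Mbnl2 and Nova2 in 5, Clk1 in 4, and Clk4, Srsf1 and Srsf3 in 3. The fits without 24M replicate 1 or 4 kept the other library of this near-identical pair, so no sample was left out of them. With both left out, only Elavl2, Mbnl1 and Srsf10 of these members passed (1.04% of all genes higher), and Srsf2 did not. Against 11 members higher in all samples, with 3.21% of all genes, the fit without 24M replicate 2 gave 1 member and 0.740% of all genes. Leaving out 3M replicate 1 gave 4 members and 1.20% of all genes, 3M replicate 4 gave 4 and 1.61%, and 24M replicate 3 gave 4 and 1.62%. Leaving out 3M replicate 3 gave 5 members and 1.89% of all genes, and 3M replicate 2 gave 6 and 2.14%. The number was 7 after 24M replicate 1 (2.39% of all genes) or 6 (1.85%) was left out, 12 after 24M replicate 4 (4.0%) and 13 after 24M replicate 5 (3.21%). It was 18 after 3M replicate 5 was left out, the highest 3M sample in 9 of the 11 genes and in 34 of the 59 tested members. The share of all genes in which it was highest was not counted. In that fit 8.51% of all genes were higher at an adjusted p of 0.05, the rule that gave the 18 members. With the fold threshold 7 members passed without 3M replicate 5, and the share of all genes by that rule is not given.

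GC content moved with the direction at 24M. The tested genes with a GC value, taken from the longest annotated transcript, were cut by it into 4 bins of equal size. The bin with the lowest GC content (31.0% to 45.1%) had a median log2 fold change of 0.14 and 6.96% of its genes were higher, whereas the bin with the highest had a median of -0.10, with 1.0% higher and 5.15% lower. Of the 59 tested members 34 were in the lowest bin, and 9 of these 34 were higher. The 11 higher members had a median GC content of 40.9% and the other members 45.0%. With offsets for GC content and gene length, 6 members were higher (Hnrnpk, Mbnl1, Mbnl2, Srsf10, Srsf2 and Srsf3, against 2.23% of all genes) and 0 lower, none passed the fold threshold, and the median of the members was 0.05. The offsets lowered the log2 fold change of Clk1 to 0.27, Clk4 to 0.20, Srsf6 to 0.16, Srsf1 to 0.25 and Elavl2 to 0.15, which no longer passed, and that of Nova2 was -0.15. Hnrnpk had 0.16, Srsf3 0.27, Mbnl1 0.30 and Srsf10 0.44 with the offsets and still passed. Srsf2 (0.43 with and without the offsets) and Mbnl2 (0.395 with and 0.38 without) were hardly moved and also passed.

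**Figure D5:**
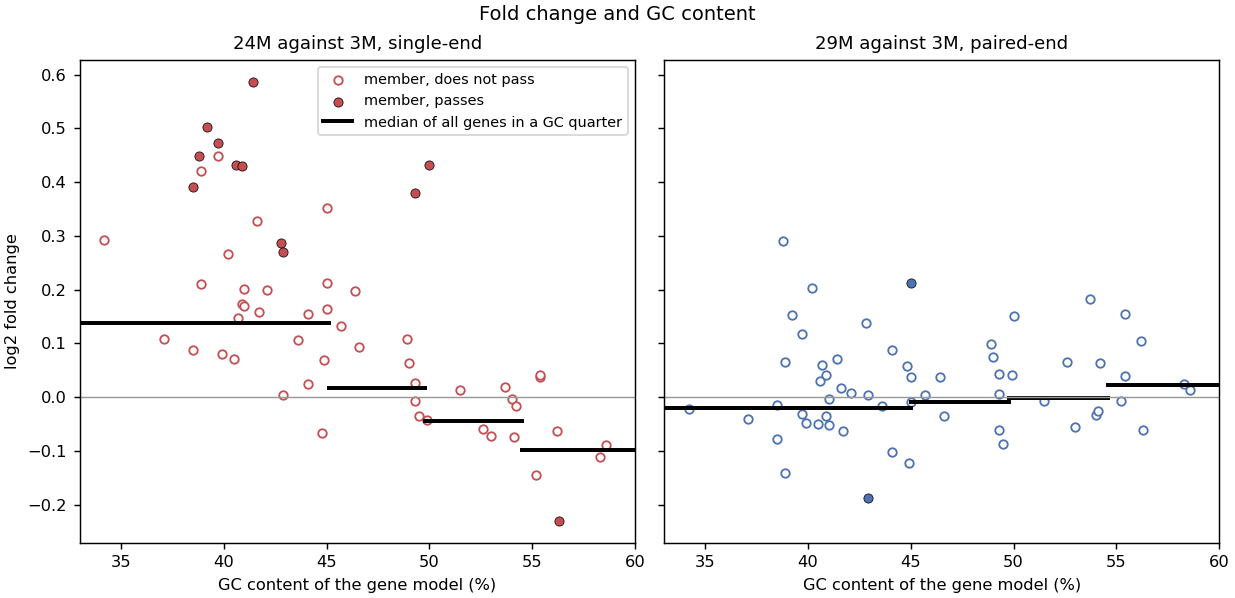
Log2 fold change of the 59 tested members against the GC content of their longest annotated transcript, at 24M (left) and 29M (right). Filled points pass an adjusted p of 0.05. Black lines are the medians of all tested genes in each of 4 GC bins, drawn within the plotted range. At 24M the line falls from 0.14 to -0.10 and 9 of the 11 higher members lie in the lowest bin, and at 29M the line rises from -0.02 to 0.02.

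Summed levels of other gene lists are given for the single-end groups, without a test of the sums. The summed level of 17 immediate-early genes ranged from 673 to 1339 CPM at 3M and from 610 to 684 CPM at 24M, and that of 12 striatal markers from 309 to 839 CPM and from 322 to 350 CPM. For 9 detected neocortical markers the ranges were 423 to 565 CPM and 383 to 415 CPM. None of these genes was at 0 in all libraries. The 12 microglia markers summed to 491 to 579 CPM at 3M and 630 to 672 CPM at 24M without overlap, and 8 of the 12 passed as higher (against 3.21% of all genes). The part of these lists in the results was not tested.

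The second comparison asks the same of the 29M hippocampus. At 29M, 1 of 59 members was higher at an adjusted p of 0.05, Srsf11 (1.69%, against 2.32% of all 15097 genes tested), and 1 was lower, Hnrnpc (1.69%, against 0.662%). These shares were near those of all genes. With the fold threshold 0 were higher (against 1.34%) and 0 lower (against 0.113%) by edgeR and by DESeq2, and at an unadjusted p under 0.05 there were 9 higher (against 9.86%) and 4 lower (against 7.48%). The log2 fold change was above 0 in 33 of 59 (against 49.4%), and its median over the members was 0.0086.

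Srsf11, an SR-related factor of the splice-site machinery, had 110, 110 and 110 CPM in the paired-end 3M replicates. It had 129, 134 and 120 CPM in the 29M replicates. All 29M samples lay above all 3M samples. Srsf11 rose by 0.21 (SE 0.0428, 1.16-fold, adjusted p 0.0161, edgeR), and passed in 2 of 6 fits that left out a library, those without 3M replicate 1 and without 29M replicate 3; in the others the adjusted p reached 0.121. At 24M it had 79.7 to 108 CPM in the 3M and 102 to 178 CPM in the 24M samples (log2 fold change 0.35, adjusted p 0.134, edgeR), with 24M replicate 3 at the top.

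Hnrnpc, which binds uridine tracts and guards against cryptic exons, had 201, 189 and 188 CPM at 3M. It had 170, 171 and 165 CPM at 29M. The groups did not overlap. Hnrnpc fell by 0.19 (SE 0.0367, adjusted p 0.0134, edgeR), and this was lost without 29M replicate 1, 2 or 3 (adjusted p up to 0.0883). In the single-end experiment it had 125 to 144 CPM at 3M and 127 to 140 CPM at 24M (log2 fold change 0.0038, SE 0.0497).

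Some members stood near the threshold at 29M. Clk4 had 34.8, 39.7 and 38.0 CPM at 3M and 49.8, 44.9 and 43.0 CPM at 29M, without overlap (log2 fold change 0.29, SE 0.0726, adjusted p 0.0504, edgeR), and passed without 3M replicate 2 (adjusted p 0.0446). Srsf5 had 171, 181 and 184 CPM at 3M and 219, 211 and 188 CPM at 29M, also without overlap (log2 fold change 0.20, adjusted p 0.0531, edgeR). In all, 8 of 59 members lay wholly above their 3M samples (13.6%, against 11.8% of all genes) and 3 wholly below (5.08%, against 10.6%). At 24M, 7 members lay wholly above (11.9%, against 3.15%) and 1 wholly below (1.69%, against 3.42%).

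The 29M values of the 11 members that were higher at 24M, a set chosen for its 24M values, are given as a description. Srsf10 had a log2 fold change of 0.07 (SE 0.0712), with 51.0 to 57.1 CPM at 3M and 51.2 to 60.4 CPM at 29M. For the others the log2 fold changes at 29M were 0.29 (Clk4, as above), 0.15 (Clk1), 0.15 (Srsf2), 0.14 (Srsf6), 0.12 (Mbnl1), 0.03 (Srsf1), 0.0056 (Mbnl2), 0.0043 (Hnrnpk), -0.02 (Elavl2) and -0.03 (Srsf3), none past an adjusted p of 0.05. Nova2 had -0.06 (SE 0.0544). Of the remaining kinases and TRA2 genes, Clk2 had 0.15, Clk3 0.07, Srpk1 0.06, Srpk2 -0.05, Tra2a -0.12 and Tra2b -0.03, and none passed.

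Other RNAs also moved at 29M. Meg3 ranged from 1050 to 1322 CPM at 3M and from 1726 to 1948 CPM at 29M (log2 fold change 0.66, adjusted p 0.000378, edgeR), and Malat1 from 226 to 374 CPM and from 428 to 616 CPM (log2 fold change 0.90, adjusted p 0.00729, edgeR). At 24M neither passed, with log2 fold changes of 0.27 for Meg3 and 0.32 for Malat1. The 12 microglia markers summed to 466 to 485 CPM at 3M and 616 to 648 CPM at 29M, with 9 of 12 higher. The 11 astrocyte markers summed to 5874 to 5978 CPM and 6389 to 6433 CPM, with 3 of 11 higher. Of all genes, 2.32% were higher at 29M. The part of these RNAs and cell types in the levels of Srsf11, Clk4 and Hnrnpc was not tested.

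The difference between the 29M and 24M effects was tested as an interaction in a fit of all 4 groups. By edgeR 0 of 59 members and 0 of 16055 genes passed an adjusted p of 0.05, and DESeq2 gave 0 members. At an unadjusted p under 0.05, 17 members had a 29M log2 fold change below that at 24M (28.8%, against 6.27% of all genes). In 0 members was the 29M value above it (against 4.15%). A lower value is not always a smaller effect, since Hnrnpc, 1 of the 17, had 0.0038 at 24M and -0.19 at 29M. The difference was above 0 in 16 of 59 members (27.1%, against 51.9% of all genes). The smallest p belonged to Elavl2 (difference -0.41, SE 0.106), Hnrnph2 (-0.22, SE 0.0700) and Hnrnpk (-0.27, SE 0.0871), each with an adjusted p of 0.392. Without 3M single-end replicate 5, Elavl2 passed. The difference was not fitted with offsets for GC content and length or with a replicate block. In the lowest GC bin, which held 34 of the 59 tested members at 24M, the median of all genes was 0.14 at 24M and -0.02 at 29M. The part of GC content in the difference was not tested.

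The other genes of the splicing machinery give a background for these values. Of 55 genes of the spliceosome core, all tested, 1 was higher at 24M and 0 were lower at an adjusted p of 0.05 by edgeR. This is 1.82% higher, against 3.21% of all genes, and the median log2 fold change was -0.0039. DESeq2 called 6, with the direction not given here, where among all 15683 genes tested 936 were higher (5.97%) and 661 lower. At an unadjusted p under 0.05 (edgeR) there were 5 higher (against 14.0% of all genes) and 10 lower (against 12.1%). Luc7l2, a protein of the U1 snRNP, had 86.9, 107, 77.7, 92.1 and 119 CPM at 3M and 123 to 204 CPM in the 24M libraries, without overlap, and rose by 0.63 (SE 0.135, adjusted p 0.0226, edgeR). At 29M, 3 core genes were higher (5.45%, against 2.32% of all genes) and 0 lower: Snrnp70 (log2 fold change 0.29, adjusted p 0.00112), Luc7l2 (0.26, adjusted p 0.00612) and the U1-associated Prpf39 (0.29, adjusted p 0.0398). The U1 snRNP recognizes the start of an intron.

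Of 53 further splicing regulators 51 were tested, and Qk, an RNA-binding protein of glia, was the only gene that was higher at 24M (1.96%, against 3.21% of all genes; log2 fold change 0.53, SE 0.131, adjusted p 0.0358, edgeR), with 0 lower and a median of 0.09. DESeq2 called 5. At 29M, 4 were higher (7.84%, against 2.32% of all genes) and 0 lower, with a median of 0.03: Srrm2, a scaffold of nuclear speckles (0.28, adjusted p 0.00496), the helicase Ddx17 (0.18, adjusted p 0.0125), Tia1 (0.31, adjusted p 0.0320) and the speckle protein Son (0.18, adjusted p 0.0368). 24M replicate 3 was also the highest single-end library for Srrm2 (557 CPM), Tia1 (124 CPM), Snrnp70 (145.5 CPM) and Luc7l2 (204 CPM).

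Counts per gene add up all isoforms, so a retained intron or a poison exon cannot be told from productive mRNA. Of the 59 tested members 44 (74.6%) have a transcript annotated as retained intron, and 33 (55.9%) one annotated for nonsense-mediated decay, against 56.5% and 27.3% of 14320 tested protein-coding genes. Among the 11 higher members at 24M the numbers were 10 (90.9%) and 7 (63.6%), and among the other 48 members 70.8% and 54.2%. Splicing itself was not analysed here.

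Promoters are shown for some of the members that passed: Srsf10 and Clk4 (higher at 24M), Nova2 (lower at 24M) and Hnrnpc (lower at 29M). RefSeq (GRCm38.p6) gave the 250 bases before and 50 after the start for 54 of the 60 members and for 10 of the 11 higher ones. Capitals mark matches, on both strands, to motifs searched by their letters. The windows are chr4:135855821-135856120 on the plus strand for Srsf10, chr11:51262864-51263163 on the plus strand for Clk4, chr7:18925638-18925937 on the plus strand for Nova2 and chr14:52103972-52104271 on the minus strand for Hnrnpc.
Srsf10: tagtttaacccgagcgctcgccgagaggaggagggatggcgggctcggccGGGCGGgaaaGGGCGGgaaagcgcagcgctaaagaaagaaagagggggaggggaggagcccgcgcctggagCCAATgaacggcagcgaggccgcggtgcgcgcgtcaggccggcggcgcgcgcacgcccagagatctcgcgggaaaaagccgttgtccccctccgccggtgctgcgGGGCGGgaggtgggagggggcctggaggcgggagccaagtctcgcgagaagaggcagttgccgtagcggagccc
Clk4: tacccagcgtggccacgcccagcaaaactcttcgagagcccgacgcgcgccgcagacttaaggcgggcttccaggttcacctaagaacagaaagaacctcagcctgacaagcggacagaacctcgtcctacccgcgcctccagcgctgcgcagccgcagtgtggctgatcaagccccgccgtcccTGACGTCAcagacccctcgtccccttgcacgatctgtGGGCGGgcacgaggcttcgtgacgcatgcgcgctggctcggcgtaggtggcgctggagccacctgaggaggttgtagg
Nova2: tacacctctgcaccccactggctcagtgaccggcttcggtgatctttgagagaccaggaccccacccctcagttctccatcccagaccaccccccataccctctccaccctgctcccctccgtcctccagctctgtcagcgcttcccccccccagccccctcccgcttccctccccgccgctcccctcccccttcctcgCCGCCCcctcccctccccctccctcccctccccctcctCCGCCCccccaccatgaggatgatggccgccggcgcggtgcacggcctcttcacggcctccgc
Hnrnpc: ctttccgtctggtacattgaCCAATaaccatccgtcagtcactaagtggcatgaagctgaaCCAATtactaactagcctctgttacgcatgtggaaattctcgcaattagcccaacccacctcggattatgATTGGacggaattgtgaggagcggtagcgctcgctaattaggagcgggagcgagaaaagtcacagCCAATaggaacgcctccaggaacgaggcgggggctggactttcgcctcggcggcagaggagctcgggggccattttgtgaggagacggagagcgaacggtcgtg

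The GC box GGGCGG, a site of SP factors, matched 3 times in Srsf10, 1 time in Clk4, 2 times in Nova2 and 0 times in Hnrnpc. It occurred in 68.5% of the 54 member promoters and in 6 of the 10 promoters of higher members, against 35.9% of 27025 promoters of all genes. The CCAAT box matched 4 times in Hnrnpc and 1 time in Srsf10, and occurred in 44.4% of member promoters and 70.0% of those of higher members, against 37.9% of all. TGACGT, the core of the cAMP response element, matched Clk4 on both strands at overlapping positions, and occurred in 24.1% of member promoters and 30.0% of those of higher members, against 7.64% of all. The AP-1 motif TGANTCA occurred in 1.85% of member promoters against 7.93% of all, and TATAAA in 14.8% against 14.2%. The 27025 promoters were not limited to genes that passed the filter on low counts, whereas 59 of the 60 members passed it. These shares therefore compare unlike sets of genes. A match describes these letters only, and none was tested.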

How the data were processed

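Mouse hippocampus RNA was sequenced as single-end (11) or paired-end (6) libraries. The authors aligned reads with STAR 2.3.0 to GRCm38.p2 and deposited raw HTSeq counts per Ensembl gene. Lines that name no gene (reads without a feature, ambiguous or not uniquely aligned) stayed out of the totals. GENCODE M21 named 36602 of 38355 identifiers. Counts were tested with edgeR 4.0.16 (TMM, filterByExpr, quasi-likelihood test, Benjamini-Hochberg adjustment over all genes tested) in R 4.3.3, 24M against 3M single-end and 29M against 3M paired-end. The difference was an interaction over all groups. The script was tested on simulated data. Alternatives were DESeq2 1.42.0, size factors, filters, 1 fit of all groups, a replicate block, loess offsets for GC content and length, thinned counts, 24M replicates 1 and 4 apart or left out, and each library left out.

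The members and lists were chosen with earlier results of these data known. The rule named the kinases and TRA2 genes, members past an adjusted p of 0.05, the highest gene per kb of each family, the 3 smallest p for the difference, filtered members and the leading genes of the other lists. Genes named for the ratio of library types, as ends of a range or for a value near a threshold were chosen after their values were seen.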

Additional observations from a re-analysis of the deposited data

Results flagged for a closer look

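In 5 of 54 groups of 5 samples that were examined, 1 sample lay far from the other 4, with a gap to its nearest neighbour above 0.71 of the whole range of the group. Chance gives about 2.7 such groups. 3 of the 5 were in 24M replicate 3, the library with the most Malat1 and Meg3. Clk4 had 61.0 CPM there and 38.5 to 43.1 CPM in the other 24M samples (gap 0.796 of the range). Srsf11 had 177.7 CPM there and 102.2 to 123.1 CPM in the others (0.723). Srsf5 had 151.4 CPM there and 108.1 to 115.2 CPM in the others (0.837). In the single-end 3M group, Clk1 had 45.0 CPM in replicate 3 and 54.96 to 57.3 CPM in the others (0.812), and Tra2a had 45.1 CPM in replicate 4 and 38.6 to 39.5 CPM in the others (0.858).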

How the results depend on the processing

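The numbers of members that passed at 24M depended on the settings, whereas the levels of the members did not move beyond the spread on DESeq2 size factors. Higher members at an adjusted p of 0.05 at 24M, 11 as reported, with 3.21% of all genes, were 17 with DESeq2 (5.97% of all genes), 21 with all 4 groups in 1 fit (8.03%), 16 with 24M replicates 1 and 4 kept apart (6.32%), 7 with thinned counts (2.58%), 6 with GC and length offsets (2.23%), 3 with both of that pair left out (1.04%; Elavl2, Mbnl1 and Srsf10), and 1 to 18 with 1 library left out. With the fold threshold the count, 2 as reported, was 1 with DESeq2, without a filter, with the pair apart or with the pair left out, 0 with GC and length offsets, and 0 to 7 with 1 library left out. By that rule 1.34% of all genes were higher as reported, and the share at the other settings is not given. Of lower members, 1 as reported, 0 were left with GC and length offsets or with the pair left out, and 0 to 2 with 1 library left out.

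Same-numbered replicates did not deviate together (correlations -0.175 to 0.048 at 24M and -0.069 to 0.097 at 29M). So few correlations in small groups cannot decide whether the numbers pair the samples. With the number as a replicate block, 0 members were higher at 24M by either rule (0.402% of all genes by adjusted p) and 0 lower, and with the block and GC and length offsets together 1 was higher (Mbnl1) by adjusted p and 0 by the fold rule, with 0 lower. At 29M, 1 was higher with the replicate block (2.29% of all genes) and 3 with the block and the offsets (Clk4, Srsf11 and Srsf5, against 2.34%).

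At 29M higher members, 1 as reported (2.32% of all genes), were 2 with DESeq2 (1.68%), 3 without a filter (3.08%) and 3 with GC and length offsets (2.15%). They were 0 with all 4 groups in 1 fit (0.598%) and 0 to 2 with 1 library left out (1.11% to 1.99%). Lower members were 0 with all 4 groups in 1 fit and 0 to 1 with 1 library left out. For the difference, 0 to 1 passed with 1 library left out. Of the spliceosome core at 24M, 1 as reported, the count was 6 with DESeq2, 2 without a filter, 0 with the replicate block, 5 with the pair apart and 0 to 8 with 1 library left out, and at 29M 1 to 3. Of the further regulators at 24M, 1 as reported, it was 5 with DESeq2, 6 without a filter, 0 with the replicate block, 7 with the pair apart, 0 with the pair left out and 0 to 10 with 1 library left out. At 29M, 4 as reported, it was 10 without a filter, 7 with the offsets and 1 to 4 with 1 library left out. Of all genes, 5.97% were higher at 24M with DESeq2, 2.33% without a filter and 0.402% with the replicate block. That share was 6.32% with the pair apart, 1.04% with the pair left out and 0.74% to 8.51% with 1 library left out. The counts of the core and of the further regulators are given here without their direction.

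Log2 fold changes of single genes turned sign in the fits given here, some of them with reported values well away from 0 (Ptbp2 0.29, Hnrnph2 0.17). At 24M, Hnrnpc (0.0038) had -0.0033 without a filter, -0.127 with GC and length offsets, -0.0934 with block and offsets, -0.0071 thinned, -0.0058 with the pair left out and -0.0222 to 0.0284 with 1 library left out. With the offsets Hnrnph2 had -0.0152, Ptbp2 -0.0654 and Srpk2 -0.0955, and with block and offsets Ptbp2 had -0.0639 and Srpk2 -0.0854. With 1 library left out Clk2 ran from -0.0404 to 0.0906, Celf4 from -0.004 to 0.0428 and Tra2a from -0.0121 to 0.114. At 29M, Hnrnpk had -0.0111 with the offsets and -0.0116 with block and offsets (-0.0128 to 0.0258 with 1 library left out), Mbnl2 had -0.0042 and -0.0039 (-0.0246 to 0.0278), and Ptbp2 had 0.001 thinned (-0.0635 to 0.008). With 1 library left out the 29M values ran from -0.037 to 0.01 for Elavl2, -0.0644 to 0.0015 for Elavl3, -0.0273 to 0.01 for Rbfox1 and -0.0378 to 0.0084 for Hnrnpa2b1. Over all genes named and alternatives, 829 values kept direction and side of the threshold, 107 no longer passed, 25 newly passed and 38 changed sign. The causes were not tested. Library totals of 9213474 to 28438296 counts limit the members at low levels, such as Mbnl3.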
